A study of Mus musculus with 23 samples.

Results

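The genes described here are those with H3K27me3 near their transcription start site (TSS) in Ebf2-EGFP+ cells of the cerebral cortex at E13.5, split by whether H3K27ac lay near the same TSS at E15.5. Both marks sit on lysine 27 of histone H3, and ChIP-seq lists for them came from the cerebral cortex of Tg(Ebf2-EGFP)FB58Gsat mouse embryos. In this strain EGFP follows Ebf2, and the EGFP+ cells were taken by fluorescence sorting at either stage. Lists from Ebf2-EGFP+ and Ebf2-EGFP- cells of E11.5 embryos of the same strain served for comparison. A gene was a member when an H3K27me3 peak of the E13.5 list lay within 5 kb of its TSS, taken as the 5′ end of the gene. There were 2043 members among 21938 protein-coding genes, or 9.31% (95% Wilson confidence interval, CI, 8.94 to 9.70). Of these, 1352 had H3K27ac within 5 kb at E15.5 and 691 did not. The labels tie the E13.5 H3K27me3 list and the E15.5 H3K27ac list to 2 ChIP libraries each, and every group carried the transgene. By the study's account, EGFP fades from subplate neurons around E13.5 and marks mostly Cajal-Retzius (CR) cells by E15.5, so both stages differ in which cells were sorted as well as in age. A list cannot tell both marks on 1 nucleosome from either mark in different cells of the sort.

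One list per mark and stage was used, with no peak heights, no read counts and no replicate lists, so sequencing depth is unknown and no test between stages was possible. All intervals below cover counting over genes or peaks only. The E13.5 H3K27me3 list held 6721 peaks with a median width of 146 bp, and the E15.5 H3K27ac list held 25787 nuclear peaks with a median of 283 bp. The E13.5 H3K27ac list, used to tell acetylation that stayed from acetylation that was new, was the longest at 102877 nuclear peaks, with a median of 183 bp. At members with H3K27ac at both stages the widest peak had a median of 334 bp at E13.5 and 591 bp at E15.5. At other such TSS the medians were 266 bp and 618 bp. Widths of single genes at both stages are to be read beside this general rise. Of 9 markers of CR cells, 7 had H3K27ac at E15.5, the exceptions being Calb2 and Ebf2. The study itself names Calb2 among genes with H3K27ac in Ebf2-EGFP+ cells, without giving a stage. None of 5 endothelial and none of 5 erythroid markers had E15.5 H3K27ac, and 1 of 5 meningeal markers (Foxc1) did. So did 2 of 5 microglial (Cx3cr1 and Aif1), 2 of 6 interneuron (Lhx6 and Dlx2) and 4 of 6 progenitor markers. Of pan-neuronal markers 5 of 6 had it, and all 5 of the oligodendrocyte lineage. The E13.5 H3K27ac list marked all 9 CR, all 6 progenitor, 5 of 6 interneuron and 4 of 5 microglial markers. It also marked 3 of 5 endothelial, 3 of 5 meningeal, 1 of 5 erythroid, 4 of 6 pan-neuronal and 4 of 5 oligodendrocyte lineage markers. The part of other cell types in the results was not tested.

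Polycomb repressive complex 2 trimethylates H3K27, and the mark is known for holding developmental regulators silent, above all at CpG islands. Acetylation of the same residue, by Crebbp and its relatives, marks active promoters and enhancers, and 1 histone tail cannot carry both. CR cells are among the first neurons of the cortex, lie in layer 1 and secrete Reelin, which guides the migration of later neurons.

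The DNA under 6 of the H3K27me3 peaks is shown from GRCm38 (mm10), plus strand, with every CpG in capitals, since CpG content differed between the groups. The first pair are the peaks nearest the TSS of Ebf2, the gene that the EGFP follows and which had no H3K27ac at E15.5, and of its relative Ebf3, which had. The other 4 are the widest peaks, or their middle 300 bases, of a gene with H3K27ac at both stages (H2-Q1), at E15.5 only (Tcfl5), at E13.5 only (Fam83g) and at neither (Dnase2a), leaving out predicted genes and stretches that touch a UTR. They lay at chr14:67230433-67230616 for Ebf2, chr7:137314487-137314691 for Ebf3, chr17:35320657-35320956 for H2-Q1, chr2:180642182-180642481 for Tcfl5, chr11:61684605-61684904 for Fam83g and chr8:84912183-84912482 for Dnase2a. The middle of the stretch was intergenic for Ebf2 and Ebf3, intronic for H2-Q1 and exonic for the other 3.
Ebf2: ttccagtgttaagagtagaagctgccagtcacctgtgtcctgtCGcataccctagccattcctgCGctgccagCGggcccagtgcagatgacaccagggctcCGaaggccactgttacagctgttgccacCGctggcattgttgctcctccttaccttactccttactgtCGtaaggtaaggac
Ebf3: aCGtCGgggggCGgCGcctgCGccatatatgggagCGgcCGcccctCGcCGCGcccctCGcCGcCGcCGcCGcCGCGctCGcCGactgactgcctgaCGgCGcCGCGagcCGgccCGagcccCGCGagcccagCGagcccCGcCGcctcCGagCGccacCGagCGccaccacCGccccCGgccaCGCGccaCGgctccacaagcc
H2-Q1: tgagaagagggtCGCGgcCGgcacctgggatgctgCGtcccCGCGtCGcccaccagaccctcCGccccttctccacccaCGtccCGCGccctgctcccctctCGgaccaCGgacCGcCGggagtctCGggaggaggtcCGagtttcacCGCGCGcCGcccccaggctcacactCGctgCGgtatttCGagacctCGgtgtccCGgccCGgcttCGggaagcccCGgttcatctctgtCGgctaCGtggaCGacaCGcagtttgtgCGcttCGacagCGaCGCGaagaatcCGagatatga
Tcfl5: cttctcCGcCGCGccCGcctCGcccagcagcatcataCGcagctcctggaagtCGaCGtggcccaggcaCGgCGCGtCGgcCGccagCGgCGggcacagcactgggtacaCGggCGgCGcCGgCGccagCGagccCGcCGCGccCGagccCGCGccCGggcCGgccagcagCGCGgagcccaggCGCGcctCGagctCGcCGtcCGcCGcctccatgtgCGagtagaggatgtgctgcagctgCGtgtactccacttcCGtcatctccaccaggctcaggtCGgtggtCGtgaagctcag
Fam83g: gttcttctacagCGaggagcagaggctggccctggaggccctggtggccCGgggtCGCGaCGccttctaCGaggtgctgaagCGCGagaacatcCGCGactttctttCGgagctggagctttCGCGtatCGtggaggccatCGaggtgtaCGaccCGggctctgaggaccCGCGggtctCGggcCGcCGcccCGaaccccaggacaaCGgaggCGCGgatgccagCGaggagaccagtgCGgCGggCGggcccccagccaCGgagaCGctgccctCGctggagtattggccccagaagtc
Dnase2a: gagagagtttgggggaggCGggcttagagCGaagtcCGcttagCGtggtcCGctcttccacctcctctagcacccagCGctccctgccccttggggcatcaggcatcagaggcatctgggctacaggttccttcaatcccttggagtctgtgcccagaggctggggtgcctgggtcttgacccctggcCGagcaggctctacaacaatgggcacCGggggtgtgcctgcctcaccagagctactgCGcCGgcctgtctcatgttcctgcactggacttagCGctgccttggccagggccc
The Ebf2 stretch held 6 CpGs in 184 bases, against 39 in 205 bases at Ebf3. The 300 bases held 39 CpGs at H2-Q1, 43 at Tcfl5 and 33 at Fam83g, and 11 at Dnase2a.

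Most genes with H3K27me3 at E13.5 had H3K27ac at E15.5, and most of those already had it at E13.5. At E15.5, 66.2% of the members were acetylated (1352 of 2043, CI 64.1 to 68.2), where 52.3% of all protein-coding TSS and 50.8% of the 19895 TSS without E13.5 H3K27me3 were. H3K27ac at E13.5, from other libraries of the same sorted population as the H3K27me3, lay near 1840 members (90.1%), against 60.9% of all TSS. The members therefore fell into 4 histories. Acetylation stayed at 1263 (61.8%, beside 41.3% of all TSS). It was present at E15.5 only, and so became listed between the stages, at 89 (4.36%), which is 43.8% of the members without it at E13.5, beside 28.2% of all TSS without it. It ended, meaning that a peak was listed at E13.5 and not at E15.5, at 577 (28.2%, beside 19.7%), and 114 had it at neither stage (5.58%, beside 28.0%).

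**Figure D1:**
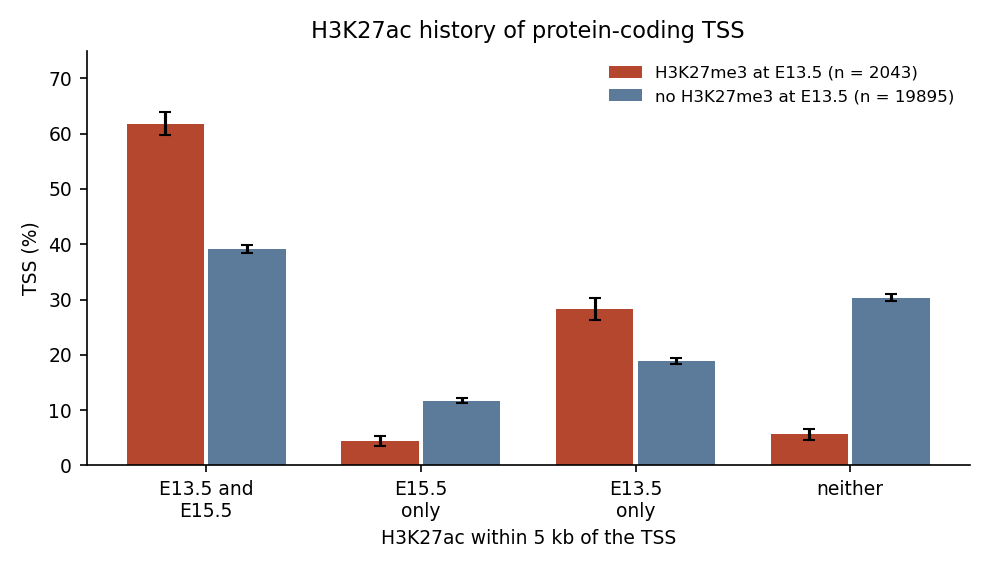
Share of TSS (%) in each H3K27ac history, for the 2043 TSS with E13.5 H3K27me3 and the 19895 without. Bars start at 0 and error bars are 95% Wilson intervals. Acetylation at both stages was the commonest history of the TSS with H3K27me3, at 61.8%, and a TSS with neither was rare among them, at 5.58%.

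Once the H3K27ac of E13.5 is held fixed, the 2 groups of TSS differed little where it was present and more where it was absent. Of members with H3K27ac at E13.5, 68.6% (CI 66.5 to 70.7) kept it at E15.5, and 67.5% of other TSS with it did. Of the 203 members without it, the 89 that had it at E15.5 made up 43.8% (CI 37.2 to 50.7), against 27.8% of the 8367 other TSS without it. The E13.5 H3K27ac list was much longer than that of E15.5, and the part of list length in these shares was tested by 1 alternative only. When the E13.5 list was cut to its widest peaks, as many as at E15.5, 73.1% of members kept H3K27ac (other TSS 75.4%) and 55.8% of those without it gained it (other TSS 41.2%).

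The preceding stage separated the members further. At E11.5, H3K27ac of the EGFP+ cells lay near 1457 members (71.3%, beside 49.9% of all TSS). Members acetylated at both E11.5 and E13.5 were acetylated at E15.5 in 76.9% of cases, and other TSS of that history in 82.6%. With H3K27ac at neither of the earlier stages the order was the opposite, at 35 of 107 members (32.7%) against 862 of 6398 other TSS. Members acetylated at E11.5 and not at E13.5 again had the lower share, with 54 of 96 acetylated at E15.5 (56.2%, CI 46.3 to 65.7) against 74.5% of other TSS of that history. The larger share of members than of other TSS to become acetylated after E13.5 was therefore not found in this subgroup. All 3 stages were acetylated at 1046 members (51.2%), and no stage at 72 (3.52%).

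Of the 89 genes whose acetylation was listed at E15.5 and not at E13.5, 54 had been acetylated at E11.5 (60.7%), beside 63.0% of other TSS of that history. Among them were Aebp2, an accessory subunit of Polycomb repressive complex 2, and Ppp2r2c, a regulatory subunit of protein phosphatase 2A that is a layer 1 gene of CR cells. Ppp2r2c had 2 H3K27me3 peaks, the nearest 101 bp upstream of its TSS, no H3K27ac at E13.5 and a 300 bp H3K27ac peak at E15.5. Aebp2 had a 116 bp H3K27me3 peak 902 bp downstream of its TSS and a 1088 bp H3K27ac peak at E15.5 that overlapped it. The E11.5 list of the EGFP+ cells held H3K27ac at both genes, so the mark was listed at E11.5 and E15.5 and not between. The 5 widest H3K27me3 peaks of this history were at Tcfl5 (469 bp), a basic helix-loop-helix factor, Ptger3 and Rsbn1 (281 bp each), Fam234a (275 bp) and Idh2 (253 bp), the mitochondrial isocitrate dehydrogenase. All 5 had H3K27ac at E11.5 too. Idh2 and Rsbn1 carried E15.5 peaks of 1278 bp and 1048 bp, and Ptger3, a prostaglandin receptor, one of 278 bp. Further genes of this history, picked after their values were seen, were Parp1 and Palb2, which act in DNA repair, the cadherin Fat3, the kappa opioid receptor Oprk1 and the homeodomain factor Pitx3.

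Of the 9 CR markers 3 were members, and 2 of those 3 were acetylated at E15.5. Trp73, the p53 relative that CR cells express, had a 116 bp H3K27me3 peak 2105 bp upstream of its TSS, H3K27ac at E13.5 (widest peak 782 bp) and at E15.5 (344 bp), and an H3K27me3 peak at E15.5 as well. Ebf3 had 2 H3K27me3 peaks at E13.5, the nearest 42 bp upstream, and H3K27ac of 625 bp at E13.5 and 1337 bp at E15.5. Its relative Ebf2 had a 184 bp H3K27me3 peak 2676 bp upstream, H3K27ac at E11.5, a 147 bp H3K27ac peak at E13.5 and none at E15.5. So Ebf2, by which the cells were sorted, was listed with H3K27me3 at E13.5 and without H3K27ac at E15.5, while Ebf3 was acetylated at all 3 stages. Slit1, a guidance ligand and layer 1 gene, had H3K27ac of 189 bp at E13.5 and 414 bp at E15.5, and B3gat1, the enzyme that makes the HNK-1 epitope, 299 bp and 982 bp. Both had an H3K27me3 peak within 500 bp of the TSS, over it at B3gat1 and 338 bp downstream of it at Slit1.

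Basic helix-loop-helix, Notch and pan-neuronal genes among the members mostly stayed acetylated, at shares near those of the same lists' other genes. Of 5 members on a list of proneural and neuronal basic helix-loop-helix factors, Neurod1, Neurod6, Olig1 and Olig2 stayed acetylated and Olig3 did not. That is 80.0% beside 63.6% of the other genes of that list. Olig1 and Olig2, with E15.5 peaks of 274 bp and 256 bp, are also among the oligodendrocyte lineage markers above. At Neurod6 the E13.5 and E15.5 H3K27ac peaks were 558 bp and 524 bp wide. Of 7 Notch pathway members 6 stayed acetylated, namely the ligands Dll1, Dll4 and Jag2, the receptor Notch3, the glycosyltransferase Mfng and the Hes relative Hes6, and Heyl did not, or 85.7% (CI 48.7 to 97.4) beside 77.8% of the 18 other Notch genes. Dll1 had its widest H3K27ac peak of 678 bp at E13.5 and 1373 bp at E15.5. Dll4, Jag2 and Hes6 also had a wider peak at E15.5. At Notch3 the widths were 285 bp and 304 bp, and Mfng had a narrower peak at E15.5, 184 bp after 336 bp. The RNA-binding proteins Elavl3 and Rbfox3, both pan-neuronal, stayed acetylated, with 1725 bp and 1071 bp at E15.5. No gene of a list of 27 for synaptic vesicle release was a member. As 9.31% of all genes were members, a list of that length would hold few in any case.

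Forebrain patterning factors were divided. Of 27 listed, 12 were members, 7 of which stayed acetylated (Dmrt3, Dmrta2, Emx2, Gsx1, Otx1, Six3 and Zic2). In the other 5 it ended (Dbx1, Fgf8, Nkx2-1, Pax6 and Wnt3a). Emx2, a factor of the dorsal telencephalon, had H3K27ac of 227 bp at E13.5 and 1188 bp at E15.5, and Dmrta2 391 bp and 1071 bp. The median over all members that stayed acetylated also rose, from 334 bp to 591 bp. Six3 and Gsx1 had narrower peaks at E15.5 than at E13.5, 206 bp after 417 bp and 262 bp after 538 bp. Pax6, the factor of cortical progenitors, had a 123 bp H3K27me3 peak 1428 bp upstream of its TSS, a 239 bp H3K27ac peak at E13.5 and none at E15.5. Of the 15 genes of the list without E13.5 H3K27me3, 10 were acetylated at E15.5 (66.7%), beside 58.3% of the 12 (CI 32.0 to 80.7).

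Members of the GABAergic programme and of lineages outside the nervous system mostly had H3K27ac at E13.5 and not at E15.5. Low shares at E15.5 were also found among the other genes of both lists. Among the GABAergic members Maf had H3K27ac at E15.5 (a 212 bp peak). Dlx6, Nkx2-1 and the vesicular GABA transporter Slc32a1 had it at E13.5 and not at E15.5. At Nkx2-1 and Slc32a1 it was also listed in EGFP+ cells of E11.5. Of 40 transcription factors of non-neural lineages 11 were members, and 3 of these stayed acetylated, namely Hand2, Myod1 and Nkx2-5, with E15.5 peaks of 308 bp, 329 bp and 184 bp. Cdx1, Foxa1, Gata6, Pax7, Sox17, Tbx20 and Wt1 had H3K27ac at E13.5 and not at E15.5. At Cdx1, Foxa1, Pax7 and Wt1 it was also listed in EGFP+ cells of E11.5. The share acetylated at E15.5 was 27.3% of the 11 members (CI 9.75 to 56.6) beside 13.8% of the other 29 genes of the list.

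Across symbol families, members of transcription factor families had a lower share with H3K27ac at E15.5 than other members, with intervals that did not overlap. In 13 families counted as one (Hox, forkhead, Sox, LIM homeodomain, Zic, Ebf, Pax, T-box, sine oculis and Irx, Nkx and Dlx, POU, KLF, and Hes and Hey), 88 of 222 genes were members, or 39.6%. At E15.5, 39 of these 88 had H3K27ac (44.3%, CI 34.4 to 54.7), against 1313 of 1955 members outside these families (67.2%, CI 65.0 to 69.2). At E13.5, 87 of the 88 were acetylated, all but Irx1. Of those 87, 39 kept it (44.8%), and of the 1753 outside 1224 kept it (69.8%). Irx1, the only member of the 88 that could have gained it after E13.5, had it at neither E13.5 nor E15.5. Where the factors stayed acetylated the peak was narrower, with a median of 288 bp at their TSS at E15.5 against 590 bp outside the families, whereas at E13.5 the median at those that stayed was the wider, 442 bp against 331 bp. At E15.5 only 18 of 39 reached 300 bp, where 1042 of 1313 did outside. Transcription factor genes without E13.5 H3K27me3 stood between, with 60.0% of 120 keeping H3K27ac, and 55.2% of all 134 having it at E15.5.

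The families were not alike, in their members or in their other genes. None of 6 Pax members (Pax1, Pax2, Pax5, Pax6, Pax7 and Pax8) had H3K27ac at E15.5 (CI 0 to 39.0), though all 6 had it at E13.5, and none of the 3 other Pax genes had it. Of 8 Nkx and Dlx members 2 had it, Nkx2-5 and Nkx3-2, as did 3 of the 12 other genes of that family. Of 6 T-box members Tbx1 and Tbx2 had it (33.3%), beside 30.0% of the others. Forkhead members were acetylated in 11 of 15 cases (73.3%, CI 48.0 to 89.1), beside 58.6% of the 29 other forkhead genes. The acetylated members included Foxc1, Foxd1, Foxj1 and Foxk1 but not Foxa1, Foxb1, Foxb2 or Foxe3. Sine oculis and Irx members were acetylated in 5 of 9 cases (Irx3, Irx5, Six2, Six3 and Six4), beside 1 of the 3 others. Sox members were acetylated in 4 of 6 cases, beside 76.9% of other Sox genes. For KLF members it was 3 of 3, beside 85.7% of other KLF genes.

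Hox genes, which set position along the body axis behind the forebrain, made up 18 of the 48 factor genes whose acetylation ended. Of 39 Hox genes, 24 were members (61.5%, beside 9.31% of all genes), all 24 had H3K27ac at E13.5, and 6 had it at E15.5. Of those 6, 5 lay in HoxA and the other was Hoxb5, so outside HoxA 1 of 17 was acetylated (5.88%). At the HoxD and HoxC clusters 0 of 5 and 0 of 5 members were. HoxA held the widest H3K27ac of the members. A run of 3 H3K27ac peaks of the E15.5 list covered 99.8% of chr6:52066315-52209817, a span of 143503 bp from beyond the 3′ end of the cluster into it. In the same span the E13.5 H3K27ac list had 60 peaks over 90.7% of the bases, the E15.5 H3K27me3 list had 139 peaks over 33.4%, and the E11.5 Ebf2-EGFP+ lists of both marks had 0 peaks. Hoxa2 and Hoxa4 lay under the 63794 bp peak of this span, with 14 H3K27me3 peaks each at E15.5, and what set the span apart was not tested. H3K27ac and H3K27me3 were both listed along it at E15.5, and a difference in the DNA of the span, such as its copy number, cannot be told apart from histone marks in peak lists, so the H3K27ac calls at Hoxa2 and Hoxa4 are uncertain. Hoxa7, Hoxa9 and Hoxa13 lay outside it and had E15.5 H3K27ac peaks of 418 bp, 231 bp and 226 bp. Without the HoxA genes the 13 factor families had H3K27ac at 34 of 81 members (42.0%), and without all Hox genes at 33 of 64 (51.6%).

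**Figure D2:**
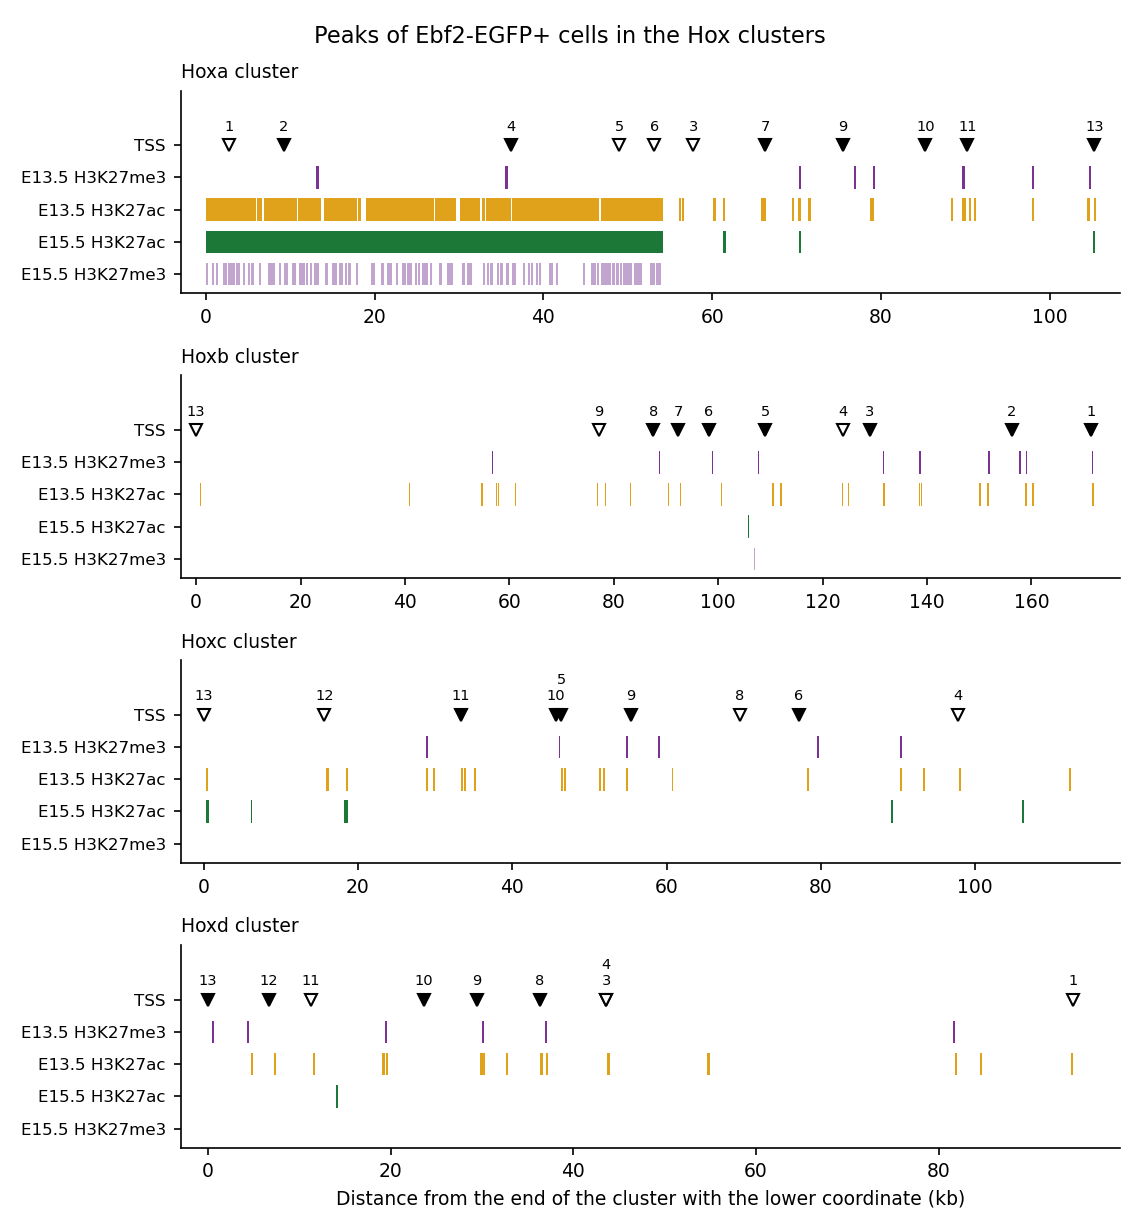
Peaks of 4 lists of Ebf2-EGFP+ cells in each Hox cluster, drawn to scale against distance in kb, with numbered triangles for the TSS of each Hox gene (filled with E13.5 H3K27me3 within 5 kb, open without). Narrow peaks are widened so as to be visible. E13.5 H3K27ac lies along all 4 clusters, while E15.5 H3K27ac is found as 1 to 5 peaks per cluster, one of which fills the left side of HoxA.

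Genes of the cell's core machinery, of zinc finger proteins and of a list for writing, reading and erasing H3K27 marks mostly had H3K27ac at E15.5. Of 29 members in 7 families of ribosomal, respiratory chain, proteasome, splicing, translation initiation and helicase genes, 27 were acetylated at E15.5 (93.1%, CI 78.0 to 98.1), all but Cox4i2 and Rpl39l. Of the 27, Eif3f, Eif5b, Snrpa1 and Uqcrfs1 had H3K27ac at E15.5 and not at E13.5. Few such genes were members in the first place, 29 of 450 (6.44%), and the other 421 were acetylated at 90.0%. Zfp genes were acetylated in 26 of 28 members, all but Zfp575 and Zfp764, beside 67.2% of the 366 other Zfp genes. All 8 members on the list for H3K27 marks were acetylated (CI 67.6 to 100), as were 26 of the 30 other genes of the list (86.7%). Among these were the Polycomb genes Aebp2, Bmi1, Cbx6, Cbx8 and Phc1 and the acetyltransferases Crebbp and Kat2a. Crebbp had a 289 bp H3K27me3 peak 581 bp downstream of its TSS and H3K27ac of 634 bp at E13.5 and 1708 bp at E15.5, and Bmi1 had 442 bp and 1041 bp.

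Among signalling and membrane genes, 7 of 9 Wnt members stayed acetylated (Wnt1, Wnt10b, Wnt11, Wnt4, Wnt6, Wnt7a and Wnt7b, but not Wnt16 or Wnt3a), beside 3 of the 10 other Wnt genes. Potassium channels were acetylated in 10 of 18 members (55.6%, beside 38 of the 76 others) and solute carriers in 21 of 38 (55.3%, beside 48.9%). Clustered protocadherins, which give neurons their surface identity, were acetylated in 2 of 11 members, Pcdha4 and Pcdhgc5 (18.2%, beside 28.3% of the 46 others). Their 9 unacetylated members all had H3K27ac at E13.5. Collagens had H3K27ac in 1 of 6 members (Col16a1), beside 28.2% of the others. Of 1135 olfactory receptor genes only 8 were members, with no H3K27ac at E15.5 in any of them (CI 0 to 32.4) and 2.22% acetylated among the rest. In 25 families with 5 or more members the share of members acetylated was above 66.2% in 12 and below it in 13.

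**Figure D3:**
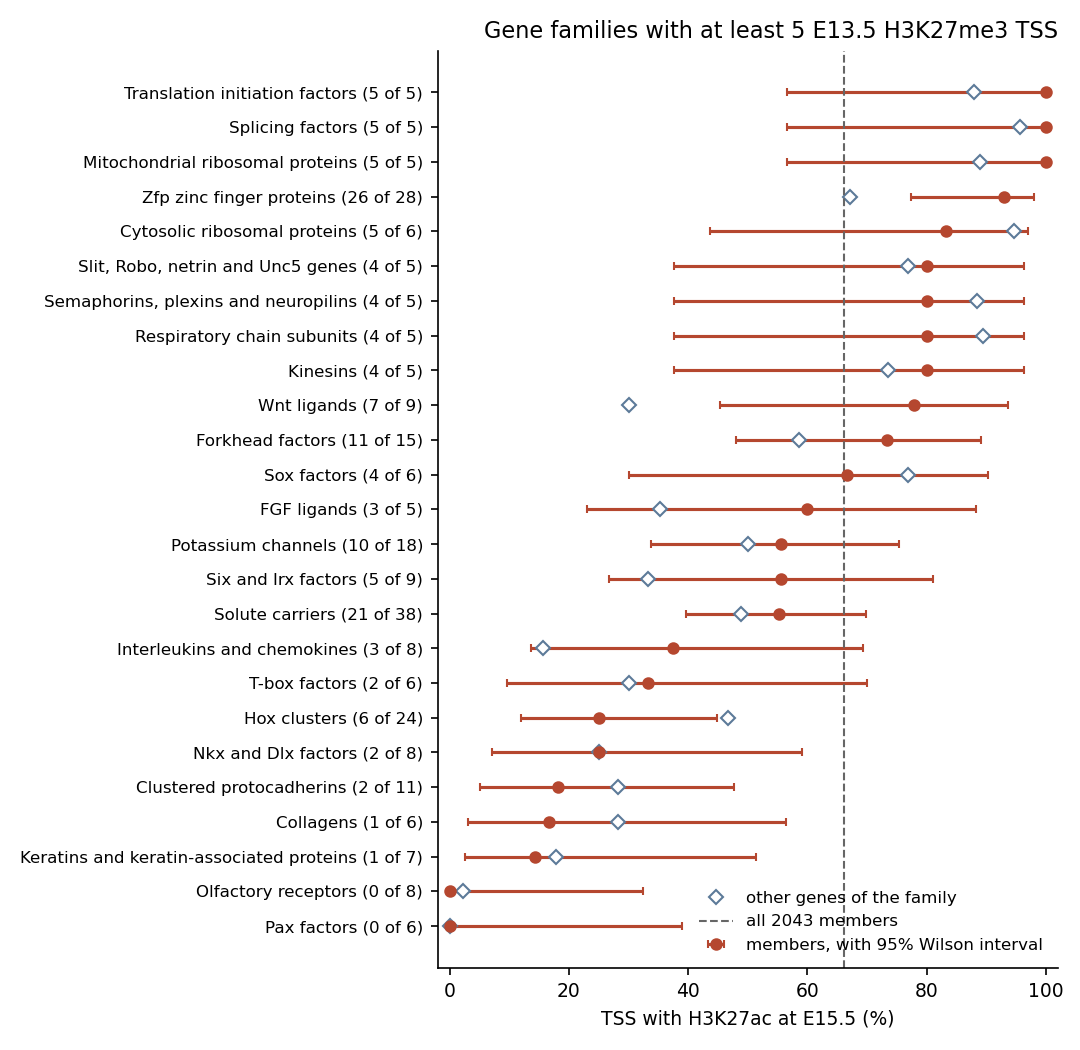
Share of TSS with H3K27ac at E15.5 (%) in the 25 symbol families with at least 5 E13.5 H3K27me3 TSS. Filled points are members with 95% Wilson intervals (acetylated of all in brackets), open diamonds are the family's other genes, and the dashed line is the share of all 2043 members, 66.2%. Pax and olfactory receptor genes sit at 0% and translation, splicing and mitochondrial ribosomal genes at 100%.

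The members without H3K27ac at either stage were few and of mixed kind. By H3K27me3 width, with predicted genes left out, the first 5 of the 114 were Samd11 (415 bp), Dnase2a (334 bp), Irx1 (288 bp), and Fcrlb and Lrrc3b (270 bp each). Dnase2a, a lysosomal nuclease, was the only one of the 114 with H3K27me3 at E15.5 too. The homeodomain factor Irx1 had 2 H3K27me3 peaks at E13.5, the nearest 42 bp downstream of its TSS, and H3K27ac at E11.5. Others of this history, picked after their values were seen, were the patterning factors En1, Gsc and Bsx, the dopamine-synthesis enzyme Th, the semaphorin Sema3d and the neurexin Nrxn3. Among members that ended their acetylation, again with predicted genes left out, the widest H3K27me3 peaks were those of Spint1 (607 bp), a protease inhibitor, Notum (599 bp), a Wnt-inactivating enzyme, Fam83g (571 bp), Rnf213 (560 bp) and Cdx1 (503 bp), a caudal homeodomain factor. Among those that stayed acetylated, where 1 peak near predicted genes reached 1052 bp, the widest at other genes were those of H2-Q1 (753 bp), Adcy2 (596 bp), Fcgr3 (568 bp), Tmem200b (561 bp) and Otud7a (560 bp).

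Few members were listed with H3K27me3 at E15.5, and many with H3K27me3 in the E11.5 Ebf2-EGFP- cells, which hold the progenitors. These lists differed in length, with 1429 and 48962 nuclear peaks, and the part of list length in this contrast was not tested. Only 55 members were listed with H3K27me3 at E15.5 (2.69%, beside 1.06% of all TSS), 44 with and 11 without H3K27ac there (3.25% and 1.59%). They included Trp73, Hoxb5, Gata6, Fgf3, Egln1, Nfic and Hspa1b. In Ebf2-EGFP- cells H3K27me3 lay near 79.7% of members with E15.5 H3K27ac and 64.7% of those without (beside 48.2% of all TSS), with intervals that did not overlap. Among TSS without E13.5 H3K27me3 the same order was seen, at 65.6% and 24.6%. In Ebf2-EGFP+ cells of E11.5 it lay near 9.32% and 8.83% of the members (beside 4.92%). H3K27ac in the Ebf2-EGFP- cells, a list from 1 library, lay near 142 acetylated members (10.5%) and 3 unacetylated ones (0.434%), beside 4.17% of all TSS.

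**Figure D4:**
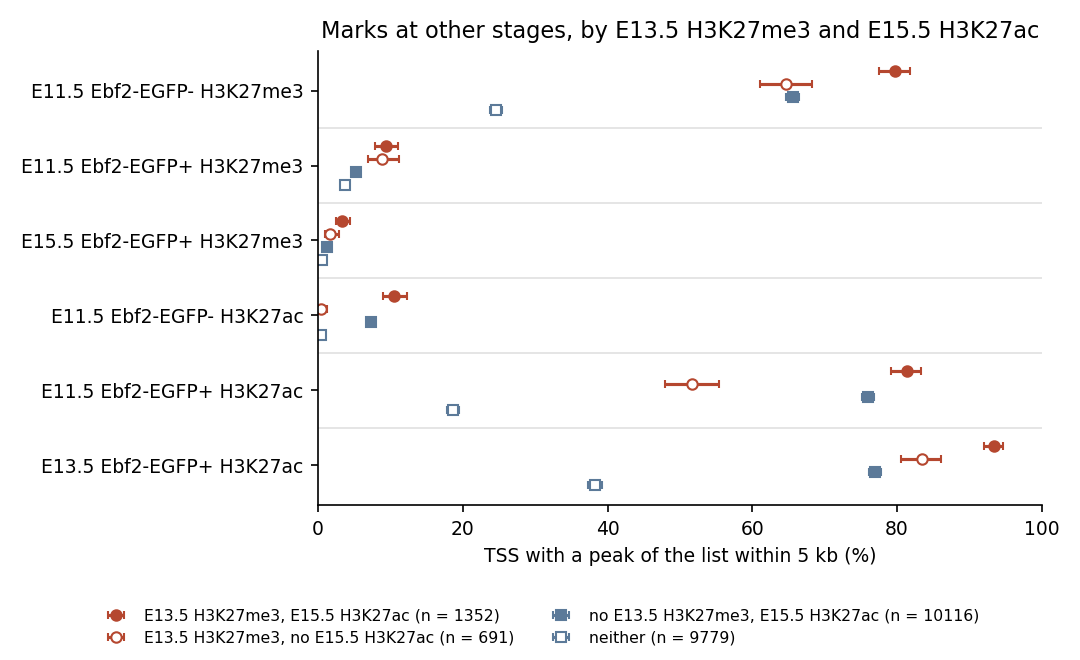
Share of TSS (%) with a peak of each other list within 5 kb, for TSS with or without E13.5 H3K27me3 (red circles, blue squares) and with or without E15.5 H3K27ac (filled, open). Error bars are 95% Wilson intervals. Filled symbols lie right of open ones in all 6 lists, with intervals that overlap for members in the E11.5 Ebf2-EGFP+ H3K27me3 list (9.32% and 8.83%) and the E15.5 H3K27me3 list (3.25% and 1.59%).

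H3K27me3 peaks near the members were single, narrow and close to the TSS, and slightly closer where H3K27ac was found at E15.5. Of the members, 1822 had 1 peak within 5 kb and 221 had 2 or more. The median distance from the TSS was 537 bp with E15.5 H3K27ac and 961 bp without, and the median of the widest peak was 161 bp and 152 bp. The middle of the nearest peak lay in an exon at 55.4% of members, in an intron at 27.7% and between genes at 16.9%. It lay downstream of the TSS at 62.3%, upstream at 27.7%, and spanned the TSS at the rest. Behind the members stood 2041 peaks, 306 of which served more than 1 TSS. At the edge of the 5 kb window 125 of 210 members with their nearest peak at 4 to 5 kb were acetylated (59.5%), and so were 116 of 187 TSS just outside it at 5 to 6 kb (62.0%). There were 10 members, all predicted genes, with 5 to 15 H3K27me3 peaks each. Of these, 9 lay between 3000922 and 3036877 on chromosome 9 and 1 on chromosome 14, and all 10 had 5 or more E15.5 H3K27ac peaks too. Without them and without the TSS at the wide HoxA span, 2031 members remained, and 68.4% of those with H3K27ac at E13.5 kept it.

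The marks shared sequence at fewer members than they shared a TSS. An H3K27me3 peak of E13.5 overlapped an E15.5 H3K27ac peak directly at 757 members, which is 37.1% of all and 56.0% of the acetylated ones. At 1093 members (53.5%) it overlapped an E13.5 H3K27ac peak. Over the whole list 1068 of 6721 H3K27me3 peaks (15.9%) overlapped E15.5 H3K27ac, and 1031 of 25787 E15.5 H3K27ac peaks overlapped E13.5 H3K27me3. The overlap was 36.3% among the 2041 peaks near a TSS and 6.99% among the 4680 farther away. Where the members lacked E15.5 H3K27ac within 5 kb, the nearest peak was a median of 18.6 kb away, and 52.5% had one within 20 kb, compared with 48.2 kb and 26.5% for other unacetylated TSS.

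Acetylation at E15.5 was as wide at the members as elsewhere, and that of E13.5 was wider where it stayed than where it ended. The widest E15.5 H3K27ac peak at a member TSS had a median of 577 bp, and that at other acetylated TSS 582 bp. At E13.5 the median was 334 bp at members that kept H3K27ac and 270 bp at those where it ended, and 266 bp and 215 bp at other TSS. The widest E15.5 peaks at members were the 63794 bp peak of Hoxa2 and Hoxa4, the 4713 bp peak shared by Brd2, a bromodomain protein that binds acetylated histones, and H2-DMa, and the 3519 bp peak of Bcl11a, a zinc finger factor of cortical neurons.

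CpG content, which the choice of members did not use, differed between the groups. The ratio of observed to predicted CpG within 500 bp of the TSS had a median of 0.74 at members with E15.5 H3K27ac and 0.49 at members without. The medians at other TSS were 0.74 and 0.23, so unacetylated members stood between acetylated TSS and unacetylated TSS free of H3K27me3. A ratio of at least 0.6 was found at 74.5% of acetylated members and 33.9% of unacetylated ones, against 75.1% and 12.7% of the other TSS. The same split was present at E13.5 H3K27ac that stayed and that ended, with 0.74 and 0.51. E15.5 H3K27ac rose with the ratio in members from 36.5% below 0.2 to 100% above 1. Below 0.2 the share was 36.5% at members and 10.2% at other TSS, while from 0.6 to 0.8 it was 72.3% and 79.5%. Among CpG-rich TSS alone, with a ratio of at least 0.6, 81.1% of members had E15.5 H3K27ac and 86.0% of other TSS had it, so here the members had the lower share. The same held for CpG-rich TSS without H3K27ac at E13.5, of which 73.3% of members and 81.0% of other TSS had it at E15.5. In that class 53.1% of the 64 transcription factor members were acetylated, against 82.7% of members outside the 13 families.

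**Figure D5:**
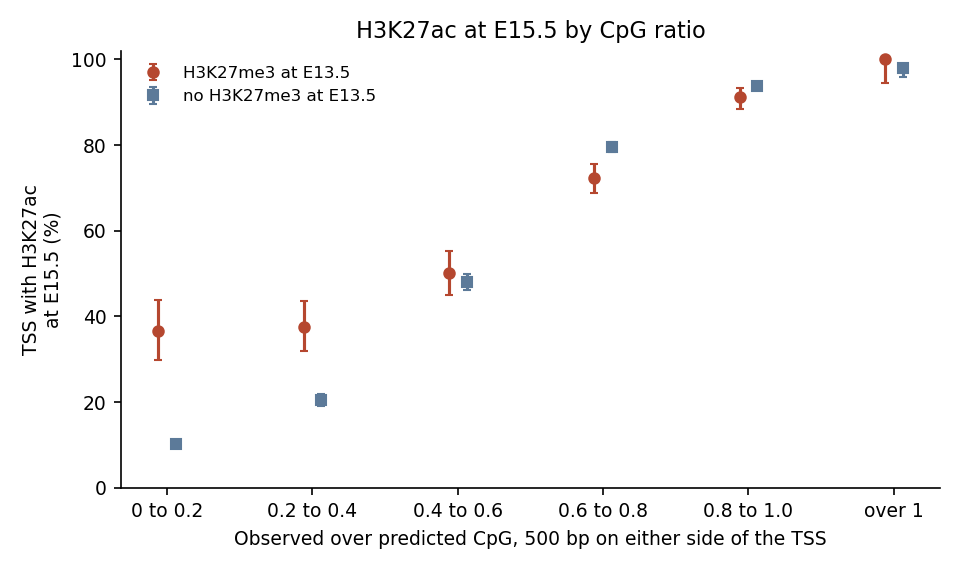
Share of TSS with H3K27ac at E15.5 (%) in 6 bins of the observed over predicted CpG ratio, with 95% Wilson intervals, for TSS with E13.5 H3K27me3 (red) and without (blue). Members lie higher in the lowest bin (36.5% against 10.2%) and lower at 0.6 to 0.8 (72.3% against 79.5%).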

How the data were processed

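ChIP-seq for H3K27ac and H3K27me3 was made on sorted cerebral cortex cells. According to the study's methods the authors aligned reads to mm10 with Bowtie (version 1.1.2 per the submitters' processing notes), allowing up to 3 mismatches, and took peaks from MACS with a p-value limit of 1e-05. Its version, the use of the input and the pooling of replicates are not given in the sources used here. The lists the authors deposited hold intervals, with a score column filled with 0, so peak heights could not be used. Of 23 samples in 12 groups, 8 ChIP groups have a list. Depth per sample is unknown, so precision is given only by counts of genes.

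Protein-coding genes of GENCODE M21 (chromosomes 1 to 19, X, Y) were analysed with Python 3.11.15, pandas 2.3.3 and pysam 0.24.0. A TSS carried a mark if any peak came within 5 kb of it. The CpG ratio was the number of CpG times the length over the product of C and G, 500 bp on either side. Overlap was at least 1 bp. Scripts were tested on simulated data. Most gene names were taken by rule: members of the hand-written lists, the 5 widest H3K27me3 peaks per history, the 5 widest E15.5 H3K27ac peaks and up to 20 members with E15.5 H3K27me3, with counts for others. Some further genes were picked after their values were seen, and the text says so where they are named. Members of symbol families are named beside their counts. The members, lists and families were chosen with earlier results of these data known, so they are no independent evidence. No replicate test was possible with 1 list per group. Mitochondrial peaks were left out. A few genes of the lists are not reported here.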

Additional observations from a re-analysis of the deposited data

Results flagged for a closer look

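The E15.5 H3K27ac list held 6 peaks on the mitochondrial chromosome, which has no histones. They were set apart because they lie outside the nuclear genome that the comparisons use, and they entered no result.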

How the results depend on the processing

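Of 43 alternative values, 23 stayed within the interval or 1.5 times of the value reported and 20 moved. The order of members and other TSS turned in some settings. The share that kept H3K27ac, 68.6% against 67.5% as reported, was 67.2% against 69.1% at 1 kb, 60.8% against 67.0% with H3K27ac peaks of at least 300 bp, 65.2% against 67.9% with H3K27me3 peaks free of E13.5 H3K27ac, 73.1% against 75.4% with the widest E13.5 H3K27ac peaks and 81.7% against 87.5% at CpG-rich TSS. Members numbered 1172 with a 1 kb window and 548 with H3K27me3 peaks of at least 200 bp. The share of members with E15.5 H3K27ac was 63.1% at 1 kb, 74.2% with any annotated transcript start, 68.6% with H3K27me3 peaks of at least 200 bp, 51.9% with H3K27ac peaks of at least 300 bp, 61.0% with H3K27me3 peaks free of E13.5 H3K27ac, and 81.1% at CpG-rich TSS. With any transcript start, 76.2% of members kept H3K27ac. Of members without it at E13.5, the share that gained it was 51.4% with H3K27me3 peaks of at least 200 bp, 55.8% with the widest E13.5 H3K27ac peaks and 73.3% at CpG-rich TSS. H3K27me3 peaks overlapping E15.5 H3K27ac made up 4.15% at a reciprocal overlap of 50%, 22.0% with edges within 1 kb, 26.5% for H3K27me3 peaks of at least 200 bp and 11.9% for H3K27ac peaks of at least 300 bp. In the 13 transcription factor families E15.5 H3K27ac was found at 12 of 50 members at 1 kb (24.0%) and, with peaks of at least 300 bp, at 18 of 88 (20.5%), below the 64.9% and 53.3% outside the families. The CpG alternative, the removal of the HoxA span and those for families were chosen after seeing the data. Why these values moved was not tested beyond the settings themselves. A stricter peak threshold was not run because all scores were 0, and no replicate could be left out. No paired analysis was possible because each group had 1 peak list. Unknown depth limits every statement on a missing peak.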
